A study of Mus musculus with 8 samples.

Results

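The insulin-like growth factor (IGF) family was followed in the aorta of newborn mice with and without lysyl oxidase, which makes elastin and collagen chains ready to crosslink. Its 10 members were the ligands Igf1 and Igf2, the receptors Igf1r and Igf2r, and the binding proteins Igfbp2, Igfbp3, Igfbp4, Igfbp5, Igfbp6 and Igfbp7, out of 22180 genes with a probe set of their own. Each member had 1 probe set that the platform table assigns to it alone. The family was picked because Igfbp2 was far higher in the knockout, so the knockout and wild-type levels of Igfbp2 are a description and carry no test.

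The 4 groups were ascending aorta of Lysyl oxidase (LOX) knockout pups (KO), ascending aorta of wild type pups (WT), descending aorta of KO pups and descending aorta of WT pups, all at p0 and on an albino C57BL/6J background. Each group had 2 arrays, and each array measured total RNA of 1 pool of 8 pups of like genotype, so n = 2 pools per group throughout. The ascending segment ran from the aortic valve to the ductus arteriosus and the descending one ended at the diaphragm. The labels used here say neither how the Lox allele was made nor whether pups were littermates. The p-values measure the spread between pools, not between pups. In pooled tissue, fewer cells of a type and less RNA per cell cannot be told apart.

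IGF1 and IGF2 are secreted growth factors that drive foetal and postnatal growth through the type 1 receptor, encoded by Igf1r. The type 2 receptor, encoded by Igf2r, carries IGF2 into lysosomes and so clears it. Binding proteins hold most extracellular IGF, prolong its life and control its access to the receptor, and several of them also act on cells without it. In vessels, IGF1 is known as a growth and survival factor of smooth muscle cells. Igf2 is imprinted and is read from the paternal allele in the embryo.

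The promoters of 3 binding protein genes are shown for comparison. Igfbp2 is the member that was high in the KO, Igfbp5 is its next protein-coding neighbour on the same chromosome, and Igfbp1, outside the 10, is a binding protein that passed the test in the descending aorta. RefSeq (GRCm38.p6) held windows for 10 of the 10 members, 14 windows in all. Each sequence below is the 250 bases before the outermost RefSeq start, written 5′ to 3′ on the gene's own strand. Capitals mark matches on either strand to the GC box GGGCGG, the E-box CACGTG, the TATA box TATAAA or the forkhead core AAACAA, and no matches overlap here. The forkhead letters were chosen with the Igfbp1 window in view.

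Igfbp2, chr1:72824230-72824479, plus strand: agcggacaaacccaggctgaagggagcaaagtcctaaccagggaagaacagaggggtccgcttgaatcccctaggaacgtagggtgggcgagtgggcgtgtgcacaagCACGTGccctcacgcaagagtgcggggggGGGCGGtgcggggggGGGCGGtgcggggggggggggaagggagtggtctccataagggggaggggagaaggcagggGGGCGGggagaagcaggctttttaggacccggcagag
Igfbp5, chr1:72874866-72875115, minus strand: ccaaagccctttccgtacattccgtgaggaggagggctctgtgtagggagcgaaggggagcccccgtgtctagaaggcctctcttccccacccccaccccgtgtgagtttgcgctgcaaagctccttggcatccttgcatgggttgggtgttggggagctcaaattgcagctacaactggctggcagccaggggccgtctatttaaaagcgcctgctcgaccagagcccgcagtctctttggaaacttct
Igfbp1, chr11:7197537-7197786, plus strand: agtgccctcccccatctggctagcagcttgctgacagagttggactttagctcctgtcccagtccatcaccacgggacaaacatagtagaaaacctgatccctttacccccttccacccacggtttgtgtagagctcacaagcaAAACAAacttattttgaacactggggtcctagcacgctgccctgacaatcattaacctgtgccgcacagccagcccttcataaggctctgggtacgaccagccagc

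The Igfbp2 window held 3 GC boxes, letters that Sp1-type factors bind, and 1 E-box. At least 1 GC box stood in 32.7% of the 32851 RefSeq windows of the same length, an E-box in 6.02%, a TATA box in 12.4% and a forkhead core in 18.3%. The Igfbp5 window held none of the 4. The Igfbp1 window held 1 forkhead core, the kind of letters through which FoxO factors act on that gene in liver. The second Igfbp2 window and 1 inner Igf2 window, not printed, each held 1 forkhead core too. Of the other members, Igf1r, Igf2r and Igfbp7 had GC boxes at their outermost start and Igf2r 2 E-boxes as well. Igf2 had GC boxes at 2 inner starts, and Igfbp4 and Igfbp6 had a TATA box in their single window. A match is a description of letters and shows no binding.

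Values are RMA signals on the log2 scale, where a difference of 1 is a 2-fold difference. Signals of different genes come from different probes and were not set against each other. The 8 arrays had medians of 5.11 to 5.19. A dim gene, with a mean under 4.11 (the 25th percentile), was not tested, and all 10 members were among the 16635 genes tested. A gene was called where limma gave an adjusted p under 0.05 over all genes tested. Lox was lower in the KO, at 8.74 to 8.87 against 11.47 to 11.60 in the ascending aorta and at 8.51 to 8.56 against 11.24 to 11.41 in the descending aorta (adjusted p = 5.35e-05 and 4.43e-05). The position of its probes within the gene was not analysed here. The mean of 10 smooth muscle markers was 9.91 to 10.11 in KO pools and 9.94 to 10.01 in WT pools. Acta2, smooth muscle actin, lay between 12.42 and 12.63, and 0 of the 10 were called between KO and WT in either segment.

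Igfbp2 encodes a binding protein with a preference for IGF2 that also carries an integrin-binding motif. It read 9.54 and 10.18 on the KO ascending arrays, against 7.95 and 7.81 on the WT ascending arrays. It read 9.83 and 9.72 on the KO descending arrays, against 8.04 and 7.84 on the WT descending arrays. Every KO array was above every WT array, and the lowest KO value stood 1.51 above the highest WT value. The KO mean was 9.86 ± 0.45 against 7.88 ± 0.10 in the ascending aorta and 9.77 ± 0.08 against 7.94 ± 0.14 in the descending aorta (SD, n = 2 each). The difference was 1.98 (SE 0.19), or 3.95-fold, in the ascending aorta and 1.83 (SE 0.19), or 3.57-fold, in the descending aorta. Averaged over both segments it was 1.91 (SE 0.14), or 3.75-fold. By size of rise Igfbp2 ranked 15 of 16635 genes in the ascending aorta, 12 in the descending aorta and 6 in the mean of both. The KO ascending arrays differed most from each other, and the ascending difference was 2.30 without KO ascending replicate 1 and 1.66 without KO ascending replicate 2.

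Igfbp2 was also set between segments. From high to low, the group means were KO ascending, KO descending, WT descending and WT ascending, and arrays of the same genotype overlapped between segments. The segment difference averaged over both genotypes does not use the contrast that picked the gene. It was 0.01 (SE 0.14, 95% interval -0.29 to 0.32, adjusted p = 0.982), with means of 8.87 for ascending and 8.86 for descending aorta. The interaction, the KO minus WT difference in the ascending less that in the descending aorta, was 0.15 (SE 0.27), and it is given without a test because it rests on the values that picked the gene.

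**Figure D1:**
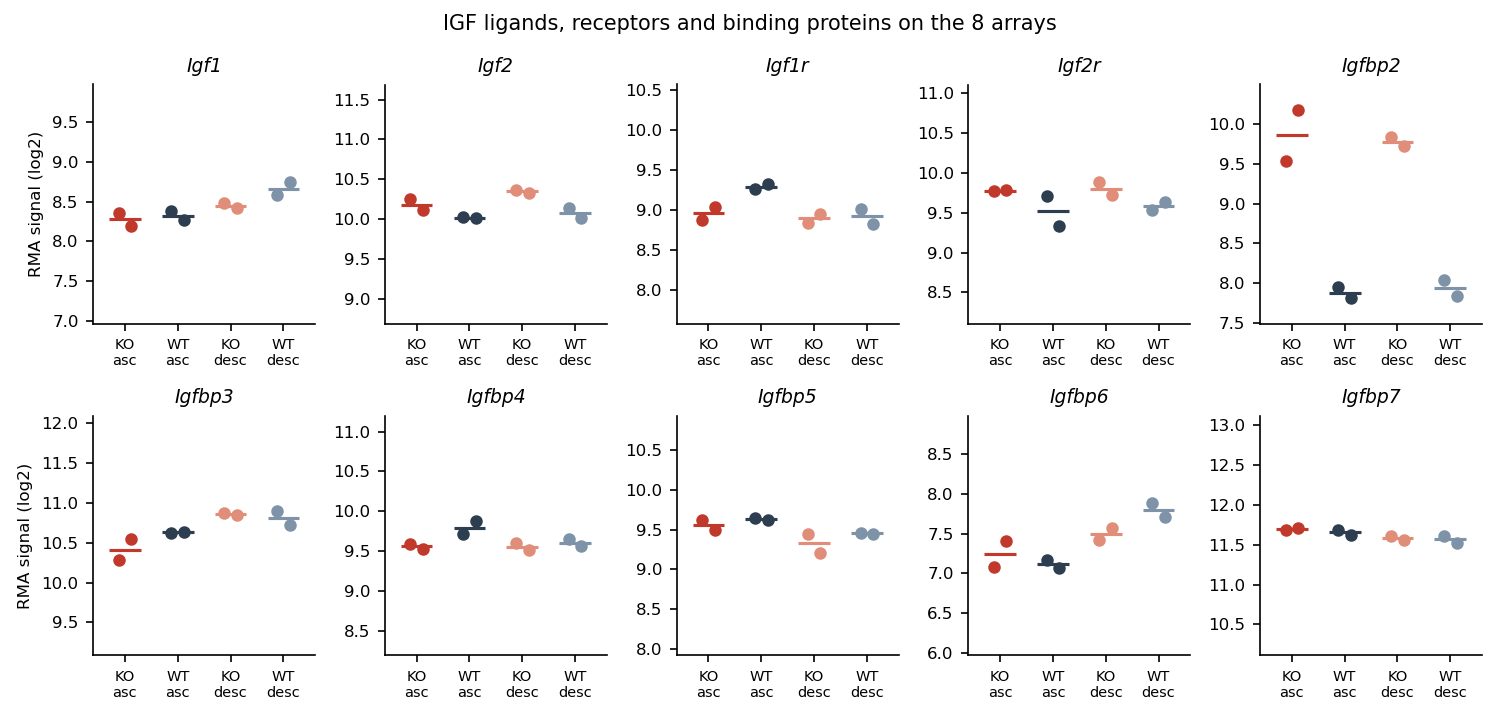
RMA signal (log2, vertical axis) of the 10 members on each of the 8 arrays, by group (KO and WT, ascending, asc, and descending, desc); points are pools, bars are means of 2, and each panel spans 3 log2 units. The Igfbp2 panel has all KO arrays at 9.54 or above and all WT arrays at 8.04 or below, while the KO and WT points of the other panels lie close together.

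Of the other 9 members, 0 passed the test between KO and WT in the ascending aorta, 0 in the descending aorta and 0 in the mean of both segments, by limma. Over all genes the called share was 2.74%, 2.28% and 11.4% in those comparisons, which is the contrast the family was picked on. At an unadjusted p under 0.05 the count was 1 (Igf1r) in the ascending aorta, 1 (Igf2) in the descending aorta and 2 (Igf2 and Igf2r) in the mean of both. By that looser rule 19.1%, 18.8% and 27.6% of all genes were counted. Their differences ran between -0.33 and 0.25 in the ascending aorta and between -0.30 and 0.28 in the descending aorta. The median was -0.04 and -0.03, against 0.01 and -0.01 over all genes. In the mean of both segments only Igf2r of the 9 had no overlap between KO and WT arrays, where 17.0% of all genes had none.

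Among the ligands, Igf2 read 10.25 and 10.11 in KO ascending aorta against 10.03 and 10.01 in WT, and 10.37 and 10.33 in KO descending aorta against 10.14 and 10.01 in WT. KO pools were above WT pools within each segment, but not across segments. Averaged over segments the difference was 0.22 (SE 0.07, 95% interval 0.05 to 0.39, adjusted p = 0.0955), which did not pass. A trended robust prior for the spread gave Igf2 an adjusted p of 0.0195 for the same difference. Igf1, the ligand that mediates growth hormone action after birth, read 8.36 and 8.20 in KO ascending aorta against 8.38 and 8.27 in WT. In the descending aorta it read 8.48 and 8.42 in KO against 8.58 and 8.74 in WT. The groups overlapped in the ascending aorta only, and the averaged difference was -0.13 (SE 0.08, 95% interval -0.31 to 0.06, adjusted p = 0.355).

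Neither receptor passed the test. Igf2r, which clears IGF2, read 9.77 and 9.78 in KO ascending aorta against 9.71 and 9.34 in WT, and 9.88 and 9.72 in KO descending aorta against 9.54 and 9.64 in WT. All 4 KO arrays were above all 4 WT arrays, by a narrow margin, and the averaged difference of 0.23 (SE 0.10, 95% interval 0.01 to 0.45, adjusted p = 0.166) did not pass. Igf1r, the signalling receptor, read 8.88 and 9.04 in KO ascending aorta against 9.26 and 9.32 in WT. In the descending aorta it read 8.84 and 8.95 in KO against 9.01 and 8.83 in WT. The WT ascending pools stood above the other 3 groups, which overlapped each other. The ascending difference was -0.33 (SE 0.11, adjusted p = 0.16), the descending one -0.03 (SE 0.11, adjusted p = 0.929), and their difference did not pass either (-0.30, SE 0.16, adjusted p = 0.908).

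Igfbp5, the neighbour of Igfbp2, encodes a binding protein that attaches to extracellular matrix. It read 9.62 and 9.50 in KO ascending aorta against 9.64 and 9.62 in WT, and 9.45 and 9.21 in KO descending aorta against 9.46 and 9.45 in WT. All 8 values lay between 9.21 and 9.64, and the averaged KO minus WT difference was -0.10 (SE 0.08, adjusted p = 0.486), with a 95% interval of -0.28 to 0.09. Igfbp3, the main carrier of IGFs in blood, read 10.28 and 10.54 in KO ascending aorta against 10.62 and 10.64 in WT, and 10.87 and 10.85 in KO descending aorta against 10.90 and 10.72 in WT. Its groups were apart in the ascending aorta only, and neither difference passed (-0.22 and 0.05, adjusted p = 0.366 and 0.876).

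Igfbp4 encodes a binding protein that the protease PAPP-A cleaves. It read 9.59 and 9.53 in KO ascending aorta against 9.71 and 9.88 in WT, and 9.60 and 9.51 in KO descending aorta against 9.65 and 9.56 in WT. WT ascending pools were the highest, and the KO minus WT differences were -0.24 and -0.05 (adjusted p = 0.273 and 0.855). Igfbp7, which binds IGFs weakly and lies in the vessel basement membrane, differed by 0.04 and 0.03 (adjusted p = 0.869 and 0.924). Its 8 values lay between 11.52 and 11.71, the narrowest range of the 10 members.

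**Figure D2:**
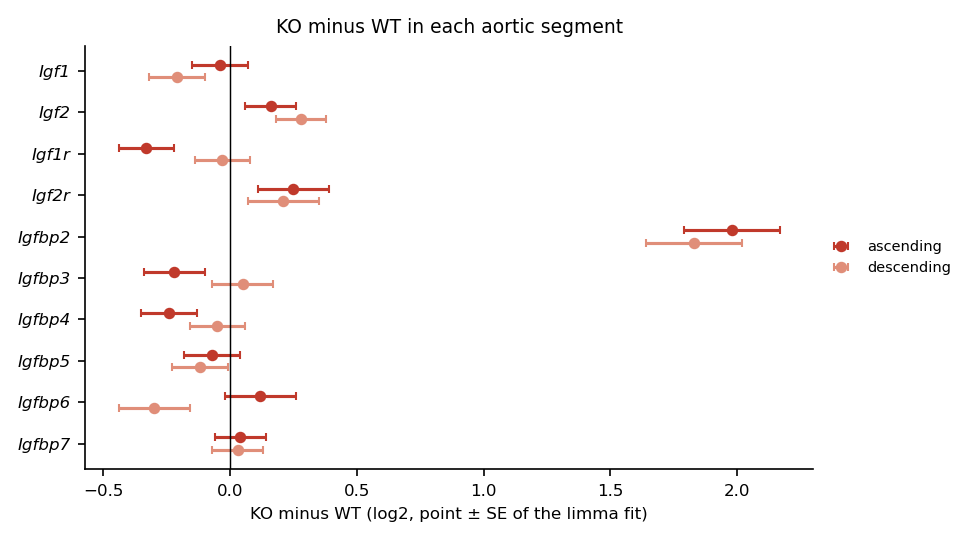
KO minus WT difference (log2, horizontal axis) of each member in the ascending and the descending aorta, with the SE of the limma fit (n = 2 pools per group). Igfbp2 lies at 1.98 and 1.83 and the other 9 members between -0.33 and 0.28.

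Igfbp6, which binds IGF2 with far higher affinity than IGF1, was the only member that passed the test between segments. It read 7.08 and 7.41 in KO ascending aorta against 7.42 and 7.57 in KO descending aorta. In WT it read 7.17 and 7.07 in ascending against 7.88 and 7.71 in descending aorta. All 4 ascending arrays were below all 4 descending arrays, the nearest being KO pools at 7.41 and 7.42. Averaged over genotypes it was lower in the ascending aorta by a difference of -0.46 (SE 0.10, adjusted p = 0.0357), or 1.38-fold. It was 1 of 10 members called in that comparison, where 4.07% of all genes were called and 2.57% were called lower. The call ended in 9 of 17 alternative fits, among them no filter on dim genes (adjusted p = 0.0516) and each array left out in turn except KO ascending replicate 2, with an adjusted p of up to 0.128. Within KO the difference was -0.25 (SE 0.14, adjusted p = 0.552) and within WT -0.67 (SE 0.14, adjusted p = 0.0574), and the interaction was 0.42 (SE 0.19, adjusted p = 0.885). Between KO and WT Igfbp6 differed by 0.12 (adjusted p = 0.681) in the ascending and -0.30 (adjusted p = 0.285) in the descending aorta.

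Markers of other tissues differed by segment as well. In the mean of both genotypes 8 of 12 fat markers, 5 of 7 neuron and Schwann cell markers and 5 of 11 endothelial markers were lower in the ascending aorta and 0 of these were higher. Of all genes 4.07% were called in that comparison, and 2.57% were called lower. The mean of the neuron and Schwann cell list was 5.43 to 5.68 in ascending against 6.58 to 6.98 in descending pools. The mean of the fat list was 6.56 to 7.73 in ascending against 7.32 to 8.38 in descending pools. Of 12 fibroblast markers, 0 were called in that comparison. The part of these tissues in the Igfbp6 difference was not tested.

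No other member passed between segments. Within KO and within WT, 0 of 9 members were called, against 1.48% of all genes in each, and at an unadjusted p under 0.05 the counts were 1 and 3 by limma, where 12.1% and 12.3% of all genes were counted. Averaged over genotypes, Igfbp3 was at -0.32 (SE 0.09, adjusted p = 0.0909) and Igf1 at -0.25 (SE 0.08, adjusted p = 0.142), both lower in ascending aorta without passing. Igf1r was at 0.22 (adjusted p = 0.221) and Igfbp5 at 0.20 (adjusted p = 0.257). At an unadjusted p under 0.05 limma counted 5 of 10 members in this averaged comparison (Igf1, Igf1r, Igfbp3, Igfbp5 and Igfbp6). By that rule 15.7% of all genes were counted. The ascending and descending arrays did not overlap in 5 of 10 members (Igf1, Igfbp3, Igfbp5, Igfbp6 and Igfbp7), where 7.26% of all genes did not overlap. Igfbp5 lay between 9.50 and 9.64 in ascending against 9.21 and 9.46 in descending pools, and Igfbp7 between 11.62 and 11.71 against 11.52 and 11.61. Only Igfbp6 of these 5 passed the test. In the interaction of genotype and segment, limma called 0 of 9 members and 0% of all genes, and 0 of the 9 had an unadjusted p under 0.05, against 5.60% of all genes.

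**Figure D3:**
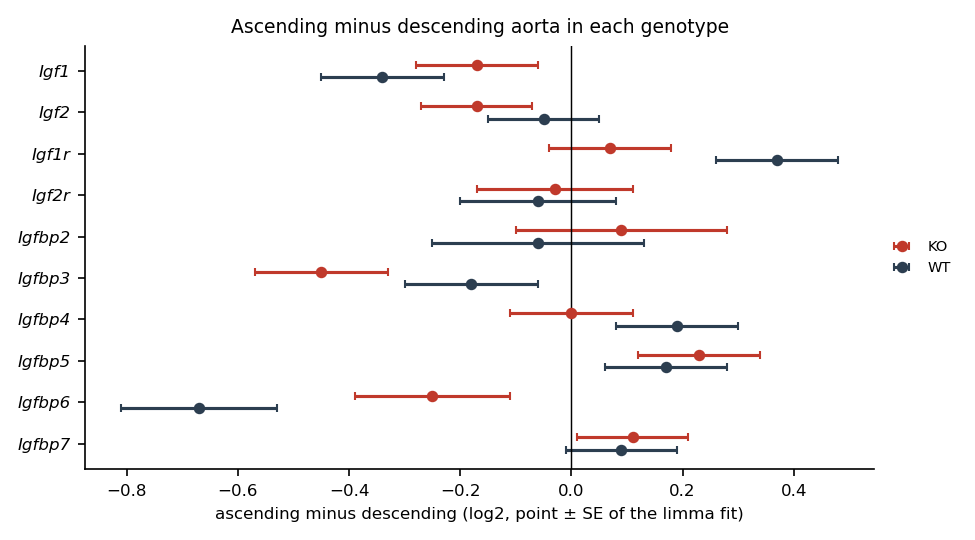
Ascending minus descending difference (log2, horizontal axis) of each member in KO and in WT, with the SE of the limma fit (n = 2 pools per group). Igfbp6 lies at -0.25 in KO and -0.67 in WT, and Igfbp2 at 0.09 and -0.06.

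Liver genes differed between the same groups, and foetal liver also makes Igfbp2, Igfbp1 and Igf2. Over 18 liver markers the mean signal was 6.43 and 7.60 on the KO descending arrays against 5.57 and 5.34 on the WT descending arrays. In the ascending aorta it was 6.18 and 6.08 in KO against 5.80 and 5.72 in WT. In the descending aorta 7 of the 18 rose and 0 fell, with a median of 1.53. In the ascending aorta 0 of 18 passed and the median was 0.38. Over all genes 2.28% were called in the descending and 2.74% in the ascending aorta. Albumin (Alb) read 9.05 and 10.20 in KO descending aorta against 7.61 and 7.20 in WT, and 8.57 and 8.37 in KO ascending aorta against 7.69 and 7.54 in WT. Vtn stands in both the liver list and the list of secreted IGFBP partners. RMA signals have no true zero, so no marker could be read as absent. The part of liver RNA in the Igfbp2 difference was not tested.

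Igfbp1, a binding protein made mainly in liver, was high in the descending KO pools. It read 6.73 and 6.88 in KO descending aorta against 5.48 and 5.50 in WT, a rise of 1.32 (SE 0.14, adjusted p = 0.00613). In the ascending aorta it read 5.89 and 5.70 in KO against 5.54 and 5.17 in WT, a difference of 0.44 (adjusted p = 0.14). Averaged over segments the difference was 0.88 (adjusted p = 0.00267), a call held in 17 of 17 alternative fits. The descending call ended without WT descending replicate 1 (adjusted p = 0.0738). The part of liver RNA in this rise was not tested. Igfbp3, which lies next to Igfbp1 in the RefSeq gene order, was at 0.05 in the same comparison.

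Markers of other tissues moved too. The mean of 12 lung epithelium markers was 5.03 and 5.09 on KO descending arrays against 6.37 and 6.63 on WT descending arrays, with 2 of 12 lower. In the ascending aorta that mean was 5.01 and 4.99 in KO against 5.04 and 5.94 in WT. The mean of 12 neutrophil markers was 6.58 and 6.71 on KO ascending arrays against 5.57 and 5.23 on WT ascending arrays, with 6 of 12 higher. In the descending aorta it was 6.14 and 6.55 in KO against 5.65 and 5.84 in WT, with 0 of 12 called. Endothelial markers had a median of -0.37 and -0.35 in the 2 segments, with 2 and 1 of 11 lower, and fat markers a median of -0.74 and -0.50, with 4 and 2 of 12 lower. Macrophage markers had 2 and 3 of 11 higher. Of 12 fibroblast markers 0 were higher and 2 lower in the ascending aorta, and 1 was higher and 1 lower in the descending aorta. Over all genes 2.74% and 2.28% were called in the ascending and the descending aorta. The part of these cells in the differences of Igfbp2 and Igfbp1 was not tested.

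**Figure D4:**
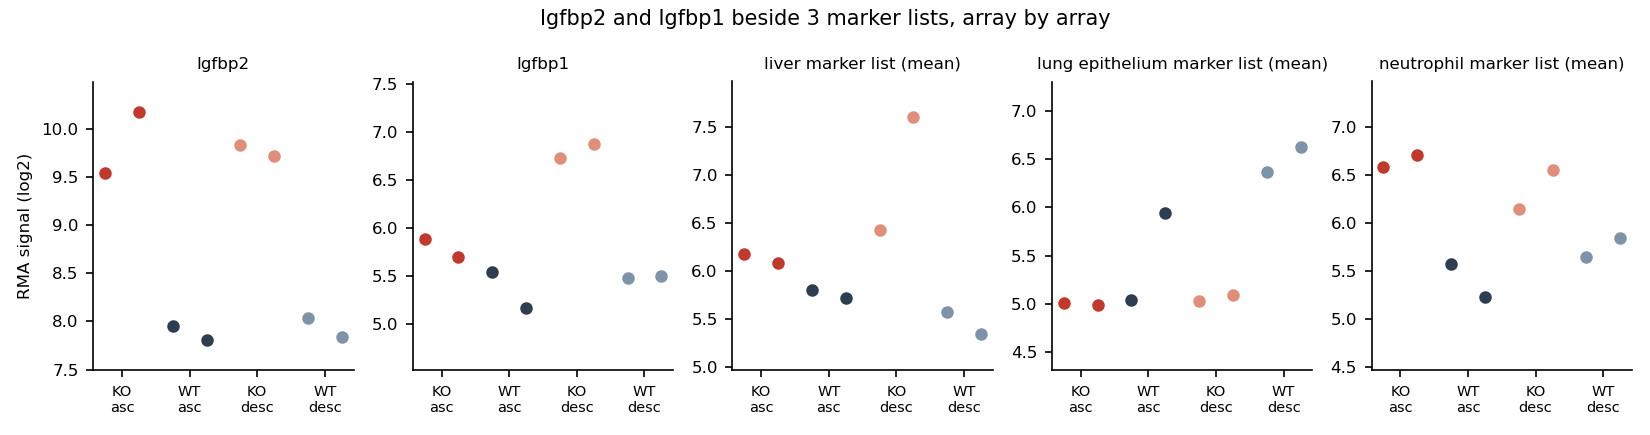
Igfbp2, Igfbp1 and the means of the liver, lung epithelium and neutrophil marker lists on each array (RMA signal, log2, vertical axis; each panel spans 3 log2 units; 2 pools per group). Igfbp2 lies between 9.54 and 10.18 in the KO pools of both segments, and Igfbp1 and the liver mean are highest in the KO descending pools.

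Other genes of the IGF pathway were read from 4 lists. Among secreted proteins that bind or cleave IGFBPs or control that cleavage, 1 of 11 rose (Igfbp1) and 3 fell in the mean of both segments, with a median of 0.06 against 0.00 over all genes. Of all genes 11.4% were called in that comparison, 6.21% higher and 5.22% lower. The count was 0 up and 1 down (Pappa) in the ascending aorta and 1 up (Igfbp1) and 0 down in the descending aorta. Over all genes 2.74% were called in the ascending and 2.28% in the descending aorta. The ascending call of Pappa ended in 11 of 18 alternative fits, and its value was -0.62 without KO ascending replicate 1 and -1.41 without KO ascending replicate 2. Pappa, the PAPP-A protease that frees IGF by cleaving IGFBP4, fell by 0.70 (SE 0.15, adjusted p = 0.0227). It read 6.35 and 7.14 in KO ascending aorta against 7.77 and 7.75 in WT, and 7.09 and 7.04 in KO descending aorta against 7.41 and 7.48 in WT. All KO arrays were below all WT arrays. The stanniocalcins, which inhibit PAPP-A, fell as well, Stc1 by 0.48 (SE 0.10, adjusted p = 0.0201) and Stc2 by 0.52 (SE 0.14, adjusted p = 0.0448). Stc2 read 6.12 and 6.48 in KO ascending aorta against 7.11 and 7.25 in WT. In the descending aorta its groups overlapped, at 6.20 and 6.29 in KO against 6.70 and 6.12 in WT. The call of Pappa ended without any 1 of the WT or KO descending arrays, with adjusted p of up to 0.0697. That of Stc1 ended without any 1 KO array or WT descending replicate 2 (up to 0.0629), and that of Stc2 without any 1 array but KO ascending replicate 2 and WT descending replicate 2 (up to 0.128). Stc2 was not called with no filter on dim genes either (adjusted p = 0.0624). Kazald1, another protein with an IGF-binding domain, was at 0.22 (adjusted p = 0.318). Between segments, averaged over genotypes, 1 of 11 was higher in the ascending aorta (Stc1) and 1 lower (Igfbp1), where 4.07% of all genes were called. Stc1 was at 0.73 (adjusted p = 0.00527), a call held in 17 of 17 alternative fits. Igfbp1 was at -0.57 (adjusted p = 0.0167), a call held in 13 of 17, with overlap between ascending and descending arrays. Within KO its segment difference was -1.01 (SE 0.14, adjusted p = 0.0139) and within WT -0.13 (SE 0.14, adjusted p = 0.806). Its interaction of genotype and segment was -0.88 (SE 0.20, adjusted p = 0.662), which did not pass.

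At the cell surface 2 of 11 partners rose and 1 fell in the mean of both segments, with a median of 0.10, where 11.4% of all genes were called. Ptprz1, a receptor phosphatase reported to bind IGFBP2, rose by 0.89 (SE 0.08, adjusted p = 0.00101). It read 10.21 and 10.21 in KO ascending aorta against 9.40 and 9.43 in WT, and 9.85 and 9.65 in KO descending aorta against 8.70 and 8.82 in WT. KO pools were above WT pools throughout, and ascending pools above descending pools of the same genotype (0.56, SE 0.08, adjusted p = 0.00539). Itgb3, the beta 3 integrin subunit, rose by 0.58 (SE 0.08, adjusted p = 0.00445). Insr, the insulin receptor, fell by 0.52 (SE 0.08, adjusted p = 0.00728), at 8.48 and 8.56 in KO against 8.93 and 9.11 in WT ascending aorta and at 8.32 and 8.37 in KO against 8.98 and 8.80 in WT descending aorta. The calls of Ptprz1, Itgb3 and Insr held in 17 of 17 alternative fits of that comparison. Ghr, the growth hormone receptor, was higher in ascending aorta by 0.42 (adjusted p = 0.0204, a call that ended without any 1 array but WT ascending replicate 1, with adjusted p of up to 0.083) and at -0.28 between KO and WT (adjusted p = 0.053). M6pr, the smaller mannose 6-phosphate receptor, was at 0.09 (adjusted p = 0.514).

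In receptor signalling 1 of 27 rose and 4 fell in the mean of both segments, with a median of -0.05, and over all genes the called share was 11.4%. Grb10, an imprinted adaptor that restrains insulin and IGF1 receptors, rose by 0.44 (SE 0.07, adjusted p = 0.0103) and held its call in 17 of 17 alternative fits. Irs4, a substrate of the receptors, fell by 0.63 (SE 0.12, adjusted p = 0.0168). Its signal was low, between 4.92 and 6.16 on the 8 arrays, near the array medians of 5.11 to 5.19. Sesn1 and Sesn3, stress proteins that restrain mTOR complex 1, fell by 0.63 (adjusted p = 0.0248) and 0.35 (adjusted p = 0.0208), and Pik3r1, the regulatory subunit of PI3 kinase, by 0.29 (adjusted p = 0.0309). Irs1 was at -0.31 (adjusted p = 0.0678). The call of Irs4 ended when any 1 of 3 arrays was left out (KO ascending replicate 1, WT ascending replicate 2 or WT descending replicate 2) or its probe sets were averaged, those of Sesn1 and Sesn3 with any 1 of 5 and that of Pik3r1 with any of the 8, with adjusted p of up to 0.0995. In the ascending aorta Irs4 passed alone of the 27, where 2.74% of all genes were called. In the descending aorta Grb10 passed alone, where 2.28% of all genes were called. The ascending call of Irs4 ended in 8 of 17 alternative fits, 6 of them without 1 array. The descending call of Grb10 ended in 11 of 18, among them the fits without any 1 of the 8 arrays (adjusted p of up to 0.202).

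Of the imprinted and foetal growth regulators 2 of 11 rose in the mean of both segments, Grb10 and Hmga2, and 0 fell, where 6.21% of all genes rose. Hmga2, a chromatin protein of foetal growth, rose by 0.37 (SE 0.10, adjusted p = 0.0442), a call kept in 5 of 16 alternative fits. The Hmga2 signal was low, between 5.04 and 5.73 on the 8 arrays, near the array medians of 5.11 to 5.19. Between segments, averaged over genotypes, 2 of 11 were lower in the ascending aorta, where 2.57% of all genes were called lower. Mest, an imprinted gene of foetal growth, was at -0.64 (SE 0.07, adjusted p = 0.00181) and Dlk1, a foetal membrane protein, at -0.49 (SE 0.08, adjusted p = 0.0108, or 0.0509 without WT descending replicate 1). Mest read 9.97 and 10.05 in KO ascending against 10.72 and 10.62 in KO descending aorta, and 9.87 and 9.84 in WT ascending against 10.47 and 10.49 in WT descending aorta. Igf2os, the antisense transcript of Igf2, was at 0.05 between KO and WT (adjusted p = 0.725). Array probes of overlapping transcripts may not fully part Igf2os from Igf2.

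**Figure D5:**
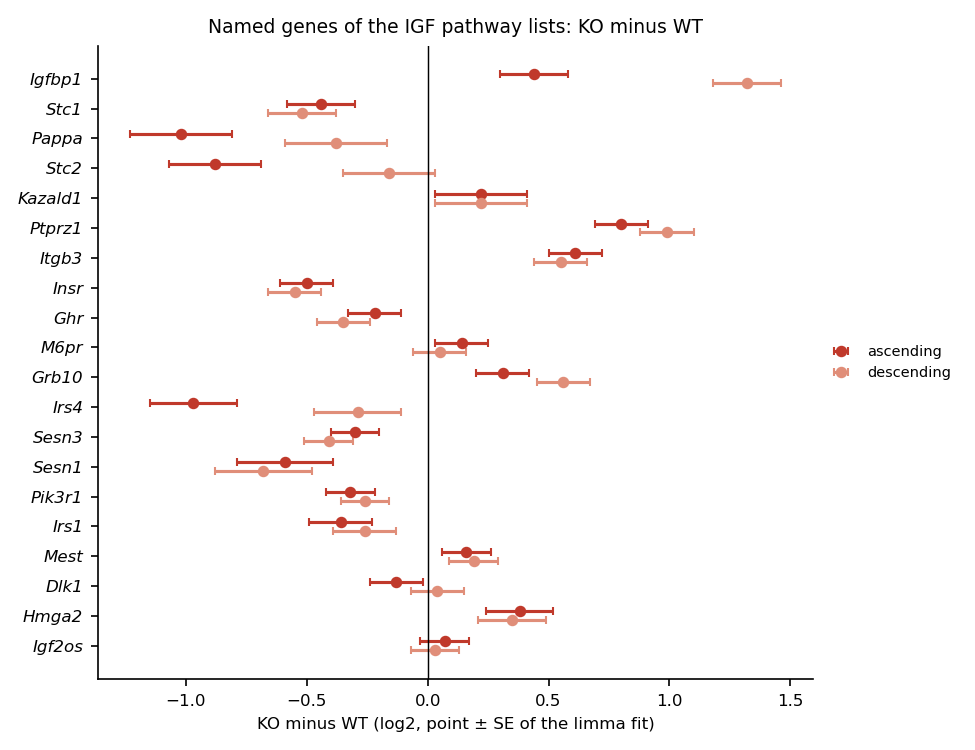
KO minus WT difference (log2, horizontal axis) of the named genes of the 4 IGF pathway lists in the ascending and the descending aorta, with the SE of the limma fit (n = 2 pools per group). Ptprz1, Itgb3 and Grb10 lie above 0 in both segments, and Insr, Sesn1, Sesn3 and Pik3r1 below 0.

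The genes nearest to Igfbp2 in pattern were taken by the root mean square difference over the 8 arrays after each gene was centred on its own mean. They were Msmo1 (0.33), Adamts8 (0.36), Gna14 (0.39), Cyp51 (0.40) and Egr1 (0.40). Msmo1 and Cyp51 encode enzymes of cholesterol synthesis, Adamts8 a secreted metalloprotease, Gna14 a G protein subunit and Egr1 an immediate early transcription factor. Their KO minus WT differences were 1.14 and 1.54 for Msmo1, 1.18 and 1.45 for Adamts8, 1.37 and 1.61 for Gna14, 1.26 and 1.24 for Cyp51 and 1.85 and 1.34 for Egr1, in the ascending and the descending aorta. High KO values follow from choosing genes by their likeness to Igfbp2 on these same arrays, so the differences are a description only. Only 22 genes lay within 0.5 of Igfbp2. The same measure says little for a flat gene, since 16148 genes lay within 0.5 of Igf1 and 16158 within 0.5 of Igf2. The 5 nearest to Igf1 were Tnfrsf19, Clp1, Pcdh18, Il22ra1 and Sct, and to Igf2 Ap2b1, Cdc16, Nat9, Snx5 and Gpr142.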

How the data were processed

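Total RNA of 8 pools of newborn mouse aorta was amplified and labelled with NuGEN kits and measured on Affymetrix gene arrays, per the labels' protocols. Per the submitters' processing notes, the authors ran RMA in Affymetrix Expression Console, and the deposited table holds the log2 signals. The table held 41345 probe sets, of which 23521 had 1 gene symbol in the platform table, 1814 several and 16010 none. For each of 22180 genes the probe set with the highest mean was used, and 16635 genes passed the 25th percentile of the means.

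Here limma 3.58.1 (R 4.3.3) was fitted with 1 coefficient per group over all 8 arrays, with default eBayes (residual df 4, prior df 4.51). P-values were adjusted by Benjamini-Hochberg over all genes tested, and the fit was tested on simulated data. Precision is limited by the 8 arrays. Across genes, Pearson's r between the 2 arrays of a group was 0.988 to 0.992.

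The members and gene lists were chosen with earlier results of these data known. The text names all members, genes called in each pathway list with 1 that was not, selected abundant markers, and the 5 genes nearest in pattern. Afterwards named outside that rule were the neighbouring genes of Igfbp2 and Igf2. Alternatives were no filter or a stricter filter on dim genes, cyclic loess, arrays shifted to 1 median, a trended robust prior, weights per array, a block for the replicate number, averaged or separate probe sets per gene, fits on the compared groups alone, and fits without 1 array. Promoters come from RefSeq. Figures were drawn with matplotlib 3.10.9.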

Additional observations from a re-analysis of the deposited data

How the results depend on the processing

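The Igfbp2 difference between KO and WT kept its direction in every alternative, and moved by more than the spread between replicates only when a KO ascending array was left out (1.66 to 2.30 in the ascending aorta over all arrays left out in turn). Of 1124 recomputed member values that carried a test, 1077 kept direction and call, 30 small uncalled ones changed sign, 9 lost a call (all Igfbp6), 8 gained one and 0 reversed. The count of members called in the averaged segment comparison, 1, was 0 with no filter on dim genes, 0 with the replicate block, 2 with a trended robust prior and 0 to 1 over arrays left out. For the other counts of 0, the trended robust prior gave 1 in KO against WT averaged (Igf2), 1 between KO segments (Igfbp3) and 1 between WT segments (Igfbp6). Between WT segments the 50th percentile filter and cyclic loess also gave 1, and arrays left out gave 0 to 1. The cause was not tested.

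The labels do not tie replicate numbers to a litter or day. Deviations of same-numbered arrays had correlations of -0.10 to 0.13 across genes. Such correlations cannot tell whether same-numbered pools came from the same pups or litters. The main fit takes all pools as independent. The replicate block changed no member's call other than that of Igfbp6 (adjusted p = 0.0529). Of the calls of pathway genes given in the report, the block ended those of Stc2 (adjusted p = 0.0615) and Hmga2 (0.0572) in KO against WT averaged and that of Grb10 in the descending aorta. Over all genes, calls ranged from 64 to 1014 (455 as reported) in KO against WT ascending, 20 to 922 (380) descending, 782 to 2604 (1902) averaged, 54 to 430 (247) and 63 to 444 (247) between KO and between WT segments, 390 to 951 (677) averaged, and 0 to 11 (0) in the interaction. The lowest counts came without 1 array (WT ascending replicate 2, WT descending replicate 1, WT descending replicate 1, KO descending replicate 2, WT descending replicate 2 and WT descending replicate 1 for the first 6 comparisons in that order), and the highest with the trended robust prior, except 11 in the interaction without KO descending replicate 1. The 2 arrays per group limit the precision.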

Other observations

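The protein-coding genes on either side of Igfbp2 in the RefSeq gene order did not pass between KO and WT. In the ascending and the descending aorta Rpl37a, a ribosomal protein gene, was at 0.17 and 0.01 (adjusted p = 0.41 and 0.963), Smarcal1, a DNA annealing helicase, at -0.01 and 0.09 (adjusted p = 0.965 and 0.671) and Tns1, tensin 1 of focal adhesions, at -0.20 and -0.08 (adjusted p = 0.42 and 0.761). Ankar and Tnp1, also among the 3 genes on each side, were not tested. Around Igf2, the mitochondrial ribosomal gene Mrpl23 was at 0.01 and 0.01 (adjusted p = 0.986 and 0.97) and Th, tyrosine hydroxylase of sympathetic neurons, at 0.21 and 0.05 (adjusted p = 0.561 and 0.91). Of the others Tnnt3, troponin T of fast muscle, was at -0.05 and 1.24, Lsp1, a leukocyte protein, at 0.17 and 0.38, and Ascl2, a transcription factor of the placenta, at 0.21 and -0.01, and 0 of these passed by limma in either segment. Ins2 was not tested.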
